A study of Mus musculus with 7 samples.

Results

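Pericytes and vascular smooth muscle cells, together the mural cells that wrap blood vessels, made up 614 of the 40158 cells kept from 7 single-cell RNA libraries of mouse hearts. A barcode was kept with at least 500 UMIs (unique molecular identifiers, 1 per captured transcript), 300 or more genes and no more than 15% of UMIs from mitochondrial genes. A kept cell was taken as mural when at least 3 of 6 genes, Rgs5, Kcnj8, Abcc9, Pdgfrb, Notch3 and Myh11, had a UMI and when Pdgfra, Cdh5 and Ptprc, which mark fibroblasts, endothelium and leukocytes, had none. The members were thus chosen on measured values, and the levels of these 9 genes are given as descriptions with no test. Cells with a UMI of Kcnj8 or Abcc9 and none of Myh11 are called the Kcnj8/Abcc9 side (303 cells), and those with Myh11 and neither of the former the Myh11 side (177 cells). A further 97 cells held both and 37 held neither.

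The hearts were of C57BL6/J mice, called WT, and of mice labelled MerTK KO, which lack the efferocytosis receptor encoded by Mertk. WT hearts were of age P1 or 8 weeks and MerTK KO hearts of age P1, each after sham surgery or myocardial infarction (MI), and WT P1 MI had 2 libraries while each of the 5 other groups had 1. Before capture on the 10x 3' platform, CD45+ cells were enriched and mixed with the CD45-negative cells at 2 to 1, so shares of cells do not give the makeup of the heart. The labels used here give neither the time after surgery, the number of hearts per library, the deleted part of Mertk nor whether libraries came from separate animals, so p-values cover only how far these libraries differ from each other, possibly for technical reasons.

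Pericytes sit in the basement membrane of capillaries and smooth muscle cells form the muscular wall of arteries and arterioles. Both depend on PDGF-B from endothelium acting on PDGFRB and on NOTCH3 signalling. In the heart, pericytes carry an ATP-sensitive potassium channel built from the pore protein KCNJ8 and the sulfonylurea receptor ABCC9, whereas MYH11, the smooth muscle myosin heavy chain, belongs to the contractile apparatus of smooth muscle. Serum response factor with its partner myocardin drives many contractile genes through CArG boxes, and RBPJ, the DNA-binding factor of Notch signalling, recognises a core of TGGGAA.

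The 250 bases before the transcription start (RefSeq, GRCm38.p6) are shown for 2 contractile genes that were high on the Myh11 side and 2 pericyte genes that were high on the Kcnj8/Abcc9 side. They lie at chr2:156775214-156775463 (plus strand, Myl9), chr19:34255374-34255623 (minus strand, Acta2), chr11:78498870-78499119 (plus strand, Vtn) and chr12:28623331-28623580 (minus strand, Colec11). Capitals mark CArG boxes (CC, a run of A or T, and GG), matches to that box with 1 base off, and TGGGAA or its reverse complement TTCCCA.
Myl9: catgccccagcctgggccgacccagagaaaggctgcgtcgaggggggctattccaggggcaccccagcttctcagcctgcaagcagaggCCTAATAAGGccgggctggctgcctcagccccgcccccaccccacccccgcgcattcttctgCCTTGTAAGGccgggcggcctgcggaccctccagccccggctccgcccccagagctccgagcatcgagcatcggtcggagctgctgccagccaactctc
Acta2: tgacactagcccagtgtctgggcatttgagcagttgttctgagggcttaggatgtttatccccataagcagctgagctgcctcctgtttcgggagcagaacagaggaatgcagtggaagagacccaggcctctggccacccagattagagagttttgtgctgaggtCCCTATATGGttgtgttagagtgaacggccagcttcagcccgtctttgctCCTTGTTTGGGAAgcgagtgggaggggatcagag
Vtn: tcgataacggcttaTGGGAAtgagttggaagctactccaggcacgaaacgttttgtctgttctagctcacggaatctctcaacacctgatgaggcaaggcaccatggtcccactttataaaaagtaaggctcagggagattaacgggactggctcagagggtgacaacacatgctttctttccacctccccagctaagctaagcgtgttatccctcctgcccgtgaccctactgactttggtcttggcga
Colec11: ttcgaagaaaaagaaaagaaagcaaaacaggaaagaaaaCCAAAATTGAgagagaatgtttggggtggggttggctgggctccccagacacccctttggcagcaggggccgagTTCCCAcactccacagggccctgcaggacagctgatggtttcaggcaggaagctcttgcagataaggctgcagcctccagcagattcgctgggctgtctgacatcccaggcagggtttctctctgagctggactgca
Myl9 held the CArG box CCTAATAAGG 161 bases before the start and the near match CCTTGTAAGG at 99. Acta2 held the near matches CCCTATATGG at 84 and CCTTGTTTGG at 34, the latter overlapping a TGGGAA at 27. Vtn held TGGGAA at 236, and Colec11 held TTCCCA at 137 and the near match CCAAAATTGA at 211. Searched on both strands, a CArG box was present in 482 of 32851 RefSeq promoters of this length (1.47%), a match with at most 1 base off in 6117 (18.6%) and TGGGAA in 7094 (21.6%). Of the 25 genes on a list of the contractile apparatus 21 had a promoter in the table, of which 2 (Myl6 and Myl9) had a CArG box, 9 a match with at most 1 base off and 5 a TGGGAA. Of 21 pericyte genes outside the rule 12 had one, of which 0 had a CArG box, 3 a match with at most 1 base off and 7 a TGGGAA. The list counts are of genes, whereas the shares over RefSeq are of promoters. The 21 contractile genes had 24 promoters and the 12 pericyte genes 18, and the numbers of promoters with each match were the same as those of genes. A match describes these letters only.

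The 7 libraries differed in size and in their mural cells. They held 773 to 15312 kept cells with median UMIs of 2152 to 11408, and 70.4% of all mural cells came from WT P1 MI replicate 2. WT P1 sham had 17 mural cells, or 1.07% of kept cells (exact 95% binomial interval 0.624 to 1.71%), WT P1 MI replicate 1 had 10 (1.29%, 0.622 to 2.37%) and replicate 2 had 432 (4.26%, 3.88 to 4.67%). WT 8 week sham had 102 (0.666%, 0.543 to 0.808%) and WT 8 week MI 4 (0.128%, 0.0348 to 0.327%). MerTK KO P1 sham had 26 (0.996%, 0.651 to 1.46%) and MerTK KO P1 MI 23 (0.348%, 0.221 to 0.522%). The share was thus highest in WT P1 MI replicate 2 and lowest in WT 8 week MI, and the replicates of WT P1 MI had intervals that did not overlap. Of the cells without a Ptprc UMI, mural cells were 2.13, 1.97, 5.84, 1.77, 0.184, 2.23 and 1.38% in the same order. This base can still hold leukocytes in which no Ptprc was counted, so it is not a share of non-leukocytes. In WT 8 week MI it had 2178 of 3130 kept cells. Of these, 59 were in the fibroblast gate and 51 in the endothelial gate defined below, and 4 were mural. These intervals cover counting error only.

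**Figure D1:**
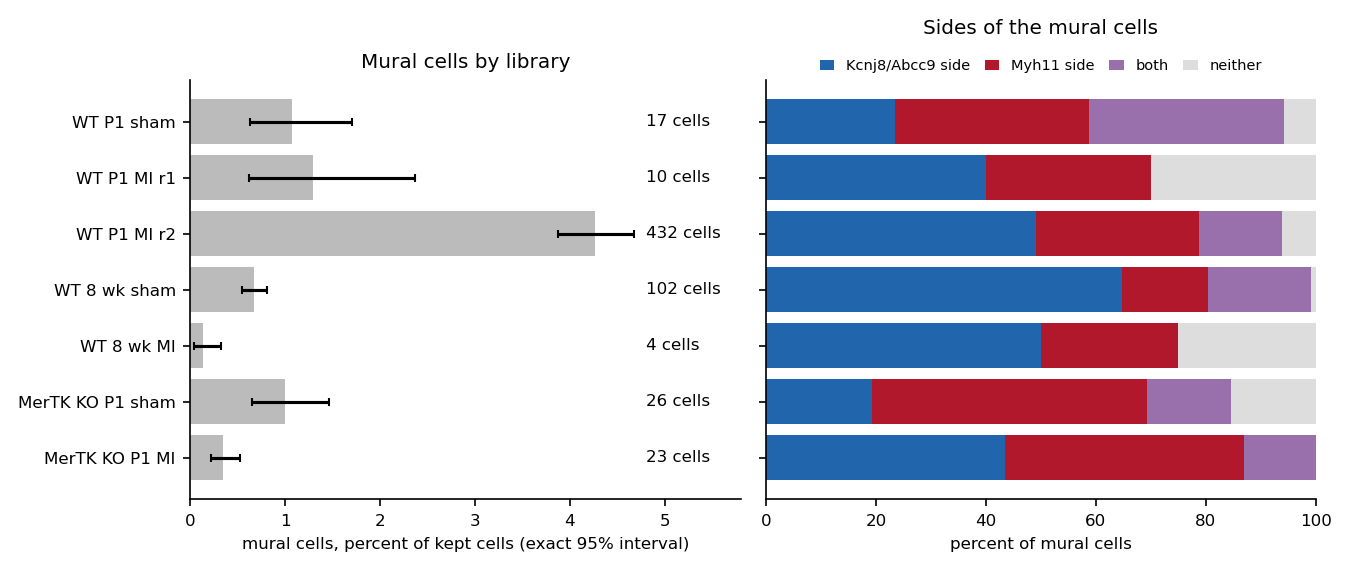
Left, mural cells as percent of the kept cells of each library, with exact 95% binomial intervals; right, the share of mural cells with a UMI of Kcnj8 or Abcc9 only, of Myh11 only, of both or of neither. WT P1 MI replicate 2 stands at 4.26% against 0.128 to 1.29% in the other 6 libraries, and the Kcnj8/Abcc9 share of mural cells is highest in WT 8 week sham, at 64.7%.

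The 5 libraries with 15 or more mural cells, 600 cells in all, entered the comparisons below. Their mural cells summed to 161728 UMIs in WT P1 sham, 3160915 in WT P1 MI replicate 2, 442566 in WT 8 week sham, and 338506 and 150169 in the sham and MI libraries of MerTK KO P1. Levels are CPM, the UMIs of a gene scaled to 1e6 UMIs of the summed cells of a library. Runs of 5 values follow this order of libraries unless named. Transcripts were counted at their 3' ends with no length scaling, so levels are compared within a gene only. No cell barcode that was mural in 1 library was mural in another, and 4 mural barcodes recurred as some other cell of another library.

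The 6 rule genes, as a description, differed in level across libraries. Rgs5, a regulator of G-protein signalling and the usual pericyte marker, stood at 6684, 4719.5, 8439, 2411 and 1612 CPM. Kcnj8 stood at 148, 503, 1566, 62.0 and 186 CPM and Abcc9 at 247, 401, 1245, 59.1 and 173 CPM. Both channel subunits were highest in WT 8 week sham and lowest in MerTK KO P1 sham. Pdgfrb stood at 340.1, 400.2, 1076, 257 and 446 CPM, Notch3 at 532, 389.8, 572, 366 and 326 CPM and Myh11 at 1904, 937, 1125, 1929 and 992 CPM. Notch3 varied least and Myh11 was highest in both P1 sham libraries. The 136 cells that passed with exactly 3 rule genes had 1533 CPM of Rgs5, 10190.3 of Acta2 and 2842 of the fibroblast gene Dcn, while the 203 cells just outside, with exactly 2, had 291, 2388 and 6359 CPM.

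The label was checked against markers outside the rule. Higd1b, a mitochondrial membrane protein of pericytes, and Acta2, smooth muscle actin, had UMIs in the mural cells of all 7 libraries, but not in every cell. Higd1b was present in 64.7, 65.7, 83.3, 38.5 and 47.8% of mural cells and Acta2 in 82.4, 88.4, 33.3, 92.3 and 95.7%. In WT P1 MI replicate 1 they were in 7 and 9 of 10 cells and in WT 8 week MI in 1 and 3 of 4. Most members also held genes of other cells, and only 69 of the 614 had fewer than 2 markers of every other lineage. At least 2 endothelial markers were present in 70.6, 60.4, 64.7, 50 and 47.8% of mural cells. These markers summed to 1422, 896, 1993, 600 and 1092 CPM, against 16459 to 29212 CPM in the endothelial gate. At least 2 cardiomyocyte markers were present in 35.3, 30.6, 5.88, 26.9 and 8.70%. In MerTK KO P1 sham, 3 mural cells of 15980, 28368 and 70387 UMIs held 7 or 8 of 8 mesothelial markers, among them 14, 47 and 155 UMIs of Upk3b, had 0 UMIs of Rgs5 and made up 33.9% of that library's mural UMIs. The mesothelial markers summed to 2053 CPM there and to at most 57.9 CPM in the other libraries. Across libraries 111 mural cells, 9 of them in MerTK KO P1 sham and 84 in WT P1 MI replicate 2, had 2 or more of the fibroblast genes Dcn, Lum, Tcf21 and Dpt or 2 or more mesothelial genes. They held 16.2, 26.5, 15.7, 51.3 and 19% of the mural UMIs. All 9 fibroblast markers were present in 3 of the 5 libraries, with only Pi16 at 0 in the others, at a summed 1064, 2954, 2221, 7081 and 3543 CPM against 11758 to 38393 CPM in cells of the fibroblast gate. Comparisons are therefore also given without these 111 cells.

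In MerTK KO P1 MI, 2 mural cells stood apart. The first, of 14274 UMIs, 9.51% of the library's mural UMIs, held 220 of its 247 UMIs of S100a8, 142 of 147 of Retnlg and 93 of 96 of Cxcl2, which are neutrophil genes, beside UMIs of 5 rule genes. The second, of 27514 UMIs (18.3%) with 4 rule genes, held 245 of 369 UMIs of Hp, 98 of 118 of Timp1 and 133 of 280 of Dcn. Of 11 leukocyte markers 8 were present in this library, with C1qa, C1qb and Laptm5 at 0, at a summed 3069.9 CPM against 24.7 to 304 CPM in the 4 others. The comparisons of injury, age and genotype are also given without these 2 cells.

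The sides separated cells along the contractile apparatus. Most contractile genes outside the rule were far lower on the Kcnj8/Abcc9 side, while collagen VI, vitronectin and the lectin Colec11 were higher there. The Kcnj8/Abcc9 side held 23.5% of mural cells in WT P1 sham (exact interval 6.81 to 49.9%), 49.1% in WT P1 MI replicate 2 (44.3 to 53.9%), 64.7% in WT 8 week sham (54.6 to 73.9%), 19.2% in MerTK KO P1 sham (6.55 to 39.4%) and 43.5% in MerTK KO P1 MI (23.2 to 65.5%). The Myh11 side held 35.3, 29.6, 15.7, 50 and 43.5%. The Kcnj8/Abcc9 share was higher in WT 8 week sham than in WT P1 MI replicate 2, with intervals that did not overlap, and the 3 smaller libraries had wide intervals. Median UMIs per cell were 3592.5 and 9216.5 on the Kcnj8/Abcc9 and Myh11 sides of WT P1 sham, 5721.5 and 6881.5 on those of WT P1 MI replicate 2, 2515.5 and 4300.5 in WT 8 week sham, 7141 and 9483 in MerTK KO P1 sham and 8025 and 3058 in MerTK KO P1 MI. A shallower cell misses a low gene more often, so cells of at least 1500 UMIs were thinned to 1500 and the whole rule was applied again. The cells selected then numbered 11, 309, 99, 16 and 13, and they are not the same set as the members above. In WT 8 week sham, for example, 92 of the members reached 1500 UMIs. The Kcnj8/Abcc9 shares of the cells selected after thinning were 36.4, 61.2, 67.7, 12.5 and 23.1%. Thinned, the intervals of WT P1 MI replicate 2 (189 of 309 cells, 55.5 to 66.6%) and WT 8 week sham (67 of 99 cells, 57.5 to 76.7%) overlapped.

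Counts were summed per library and side and fitted with edgeR over the 4 libraries with at least 5 cells on each side, which leaves out WT P1 sham. The 6 rule genes and Pdgfra, Cdh5 and Ptprc were left out of the fit. A gene is called when its Benjamini-Hochberg adjusted p is under 0.05 and its log2 fold change is at least 1 in size. Because the sides were cut by genes of the same cells, fold changes and calls describe how the sides differ, and p-values are not given. Of 1811 genes 64 (3.53%) were higher and 123 (6.79%) lower on the Kcnj8/Abcc9 side.

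Of 25 contractile genes 22 passed the filter on low counts, and 18 of these were called lower on the Kcnj8/Abcc9 side and 0 higher. Their median log2 fold change was -2.91, against 0.04 over all genes. Each of the 25 was higher on the Myh11 side in WT P1 MI replicate 2, WT 8 week sham and MerTK KO P1 sham, and 23 of 25 were in each of MerTK KO P1 MI, WT P1 sham and WT P1 MI replicate 1. Acta2 (chr19:34241090-34255590, GRCm38) stood at 114, 1815, 118, 686 and 1952 CPM on the Kcnj8/Abcc9 side and at 14944, 18592, 23870.1, 16394 and 11671 CPM on the Myh11 side. Tagln, the actin-binding protein transgelin, stood at 0, 691, 85.2, 734 and 1000.1 CPM against 9180.4, 11636, 19225, 7499.6 and 7583 CPM. The sides did not overlap for either gene. The log2 fold changes were -4.34 ± 0.80 (SE of the fit of 4 libraries) for Acta2, -4.29 ± 0.79 for Tagln and -3.79 ± 0.40 for the myosin light chain Myl9. Here and below the SE is the size of the log2 fold change over the square root of edgeR's F statistic. It thus restates the fit and is not a spread measured between the libraries. Calponin (Cnn1) stood at 0, 5.87, 0, 0 and 0 CPM on the Kcnj8/Abcc9 side and at 142, 366, 709.7, 363 and 169 CPM on the Myh11 side, a log2 fold change of -6.66 ± 0.55. A count of 0 on the Kcnj8/Abcc9 side allows up to 170.9 CPM in WT P1 sham, where that side has 4 cells, and 14.2 to 29.4 CPM in the other 3 libraries with 0. Leiomodin (Lmod1), tropomyosin (Tpm1) and synaptopodin 2 (Synpo2) were lower by -4.71 ± 0.60, -3.03 ± 0.26 and -3.51 ± 0.39. Desmin (Des), an intermediate filament of both cell types, was not called, at -1.13 ± 0.39.

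Outside the contractile list, the lowest fold changes on the Kcnj8/Abcc9 side were of genes with few or no UMIs there. Nrip2, a nuclear receptor-interacting protein, stood at 0, 1.47, 0, 0 and 0 CPM against 324, 265, 162, 314 and 395 CPM on the Myh11 side, a log2 fold change of -7.61 ± 0.50. Asb2, a muscle ubiquitin ligase subunit, had 0 UMIs on the Kcnj8/Abcc9 side of all 5 libraries and 101, 86.9, 126, 169 and 197 CPM on the Myh11 side. The laminin chain Lama5 followed the same pattern, with 0, 0.734, 0, 0 and 0 CPM against 222, 191, 126, 282 and 310.1 CPM. Cells holding both Myh11 and a channel subunit also had Nrip2, at 234, 181, 42.3, 161 and 93.4 CPM. Ramp1, which pairs with the calcitonin receptor-like receptor, stood at 0, 3.67, 33.1, 0 and 0 CPM against 162, 346, 350.4, 290.3 and 254 CPM. Of 9 tested vasoactive receptor and cyclic GMP genes 3 were lower, Ramp1 (-5.41 ± 0.65), the phosphodiesterase Pde3a (-1.83 ± 0.37) and Mrvi1 (-2.07 ± 0.49), and 0 were higher. Of 5 ion transport genes the calcium pumps Atp2a2 (-1.95 ± 0.33) and Atp2b4 (-1.84 ± 0.38) were lower. Of 4 tested Notch pathway genes the target Nrarp was lower (-2.25 ± 0.54). Other genes called lower included Mustn1 (-5.31 ± 0.41), Fbxl22 (-6.50 ± 0.55), Perp (-5.34 ± 0.49), the laminin chain Lamb2 (-2.03 ± 0.40), the transcription factor Tbx2 (-1.69 ± 0.31) and the ligand Tgfb2 (-1.38 ± 0.34).

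**Figure D2:**
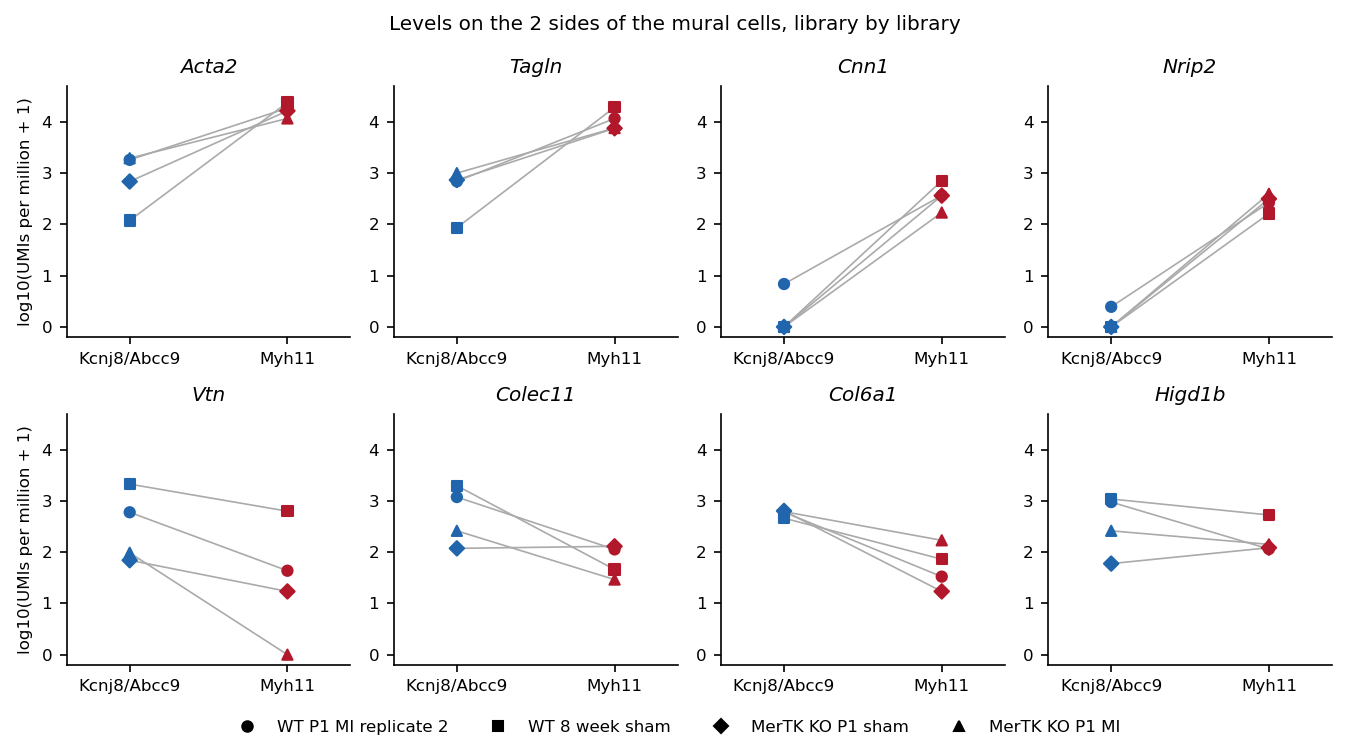
Levels of 8 genes on the Kcnj8/Abcc9 side and the Myh11 side of the 4 libraries with at least 5 cells on each, as log10 of CPM plus 1, with a line joining the sides of 1 library. Acta2, Tagln, Cnn1 and Nrip2 are higher on the Myh11 side in all 4 libraries, and Col6a1 is lower there in all 4; Colec11 and Higd1b go the other way in MerTK KO P1 sham, where the sides stand at 118 and 129 CPM and at 58.8 and 121 CPM.

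Pericyte genes outside the rule divided the sides less evenly. Vitronectin (Vtn, chr11:78499091-78502324), a secreted adhesion protein, stood at 1082, 599, 2124, 68.6 and 96.2 CPM on the Kcnj8/Abcc9 side and at 101, 42.4, 629, 16.1 and 0 CPM on the Myh11 side. It was higher on the Kcnj8/Abcc9 side in each of the 5 libraries, by 2.69 ± 0.52 on the log2 scale over the 4 fitted. Colec11, a lectin that starts complement, stood at 2393, 1188, 1977, 118 and 259.7 CPM against 121, 112, 44.9, 129 and 28.2 CPM, a log2 fold change of 3.0 ± 0.79 with MerTK KO P1 sham going the other way. Of 12 tested pericyte genes Vtn and Colec11 were called higher and Tbx2 lower, and the list's median was -0.06. Higd1b was not called (1.19 ± 0.59), nor were the proteoglycan Cspg4 (-0.52 ± 0.60), the adhesion protein Mcam (-0.97 ± 0.37) or Ndufa4l2 (-0.02 ± 0.41). Counted over all 21 genes, the Kcnj8/Abcc9 side was higher for 17 in WT P1 MI replicate 2 and in WT 8 week sham, 14 in WT P1 sham, 12 in MerTK KO P1 MI and 4 in MerTK KO P1 sham. The last of these is the library in which 3 of the 5 Kcnj8/Abcc9 cells held 2 or more fibroblast or mesothelial genes. Without the 111 such cells, which leaves 3 fitted libraries, 68 genes were higher and 144 lower. Vtn was then at 4.57, Colec11 at 4.63 and Higd1b at 2.02 and called.

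Of 18 tested interstitial matrix genes 7 were higher on the Kcnj8/Abcc9 side and 0 lower, with a median of 1.47, and of 12 basement membrane genes Col6a1, Col6a2 and Lama4 were higher and the laminin chains Lama5 and Lamb2 lower. Of 6 tested fibroblast markers Dcn, Lum and Fbln1, which are also matrix genes, were higher, and that list's median was 2.97. Col6a1, a chain of the microfibrillar collagen VI, stood at 228, 603, 459, 637 and 615 CPM against 40.4, 32.3, 71.9, 16.1 and 169 CPM, and the sides did not overlap. Its log2 fold change was 3.46 ± 0.54, beside 3.12 ± 0.40 for Col6a2, 2.10 ± 0.39 for the laminin chain Lama4 and 3.37 ± 0.70 for periostin (Postn). These 4 genes stayed called without the 111 cells, at 4.07, 3.60, 2.28 and 3.93. The proteoglycan Dcn was higher by 5.24 ± 1.06, with 0, 1026, 1221, 5132 and 2693 CPM against 20.2, 221, 27.0, 8.06 and 0 CPM. Without the 111 cells the mural UMIs of Dcn went from 10, 2629, 274, 1212 and 280 to 1, 91, 25, 1 and 163, and Dcn, Lum and Fbln1 were no longer tested. In WT 8 week sham 1 Kcnj8/Abcc9 cell held 235 of the 274 mural UMIs of Dcn. Both tested genes of MHC class I, B2m (1.84 ± 0.37) and H2-D1 (1.51 ± 0.37), were higher, as was the TGF beta co-receptor Eng (1.24 ± 0.33). Neither type IV collagen Col4a1 (0.77 ± 0.29), the MERTK and AXL ligand Gas6 (-0.69 ± 0.71) nor Col1a1 (2.52 ± 0.80) was called. Left out in turn, WT P1 MI replicate 2 lowered the counts to 14 higher and 47 lower, and MerTK KO P1 sham raised the number higher to 99.

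**Figure D3:**
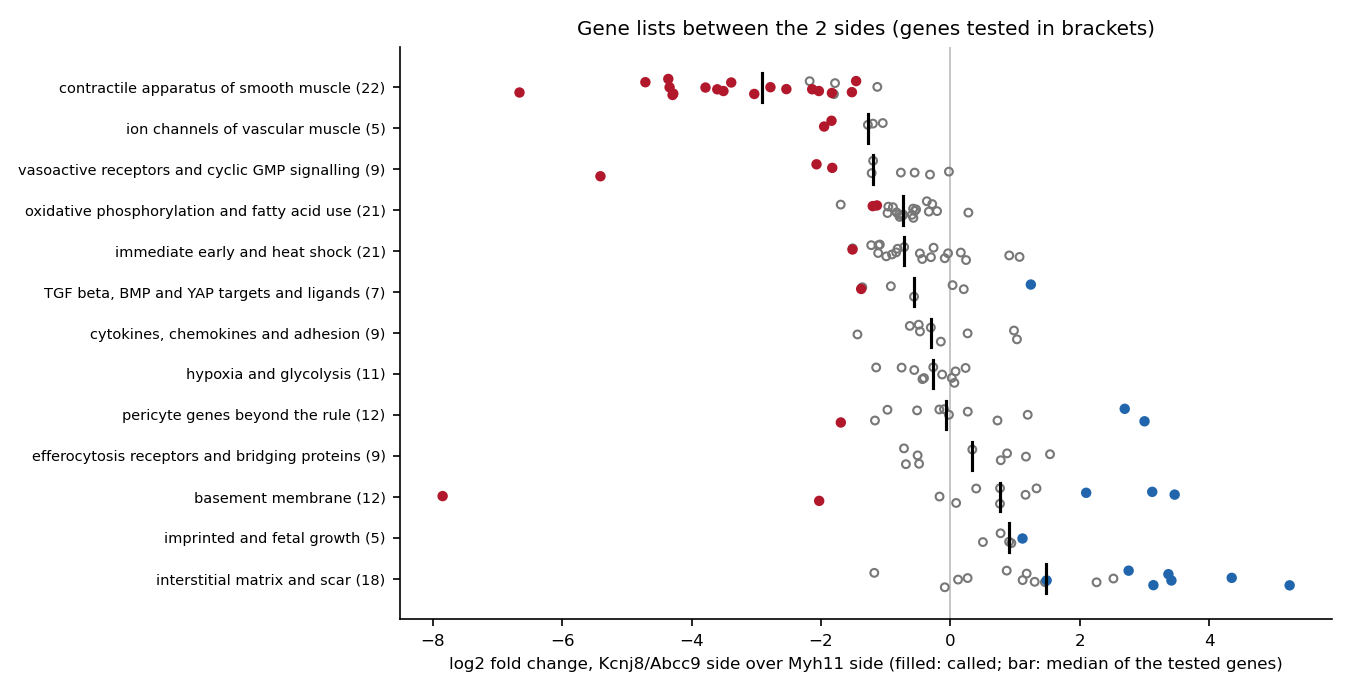
Log2 fold change of the Kcnj8/Abcc9 side over the Myh11 side for each tested gene of the lists with at least 5 tested genes; filled points are called, and the bar is the list's median. The contractile list lies at a median of -2.91 and the interstitial matrix list at 1.47, against 0.04 over all genes tested.

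Mural cells were next set beside 4940 cells of a fibroblast gate (a UMI of Pdgfra) and 4598 of an endothelial gate (a UMI of Cdh5), each with fewer than 3 rule genes and none of the other gates' genes or Ptprc. The rule separates these cells by their genes, so the calls of this contrast are a description and nothing is read from their number. Against the fibroblast gate 760 of 11346 genes (6.70%) were higher and 757 (6.67%) lower in mural cells, and against the endothelial gate 1083 of 10251 (10.6%) and 1200 (11.7%).

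Most contractile, pericyte and ion transport genes were higher in mural cells than in either gate. Acta2 stood at 8694, 8371, 8085, 8325 and 4861 CPM in mural cells, at 114 to 555 CPM in the fibroblast gate and at 10.5 to 27.5 CPM in the endothelial gate. Of the 25 contractile genes 24 were higher than in the fibroblast gate (median 3.44, all genes -0.05) and 21 than in the endothelial gate (median 5.0, all genes -0.12). Higd1b stood at 414, 537, 827, 67.9 and 333 CPM in mural cells and at no more than 0.651 and 3.81 CPM in the gates, and its log2 fold changes were 10.33 ± 0.35 and 7.77 ± 0.50. Of 19 pericyte genes tested against fibroblasts 15 were higher and Anpep was lower, and of 18 tested against endothelium 17 were higher. Olfr558, an olfactory receptor also present in vascular muscle, stood at 334, 181, 251, 186 and 93.2 CPM, against at most 0.201 and 0.55 CPM in the gates. Its relative Olfr78 stood at 74.2, 28.8, 42.9, 41.4 and 20 CPM and had 0 UMIs in the fibroblast gate of these 5 libraries. Olfr558 was thus close to absent from both gates and Olfr78 was not counted in the fibroblast gate.

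Ligands and receptors split between the cell types. The endothelial gate held Pdgfb, which recruits mural cells, at 142, 129, 256, 124 and 107 CPM and mural cells at 12.4, 13.6, 11.3, 8.86 and 20 CPM (-3.57 ± 0.25). Mural cells held the related ligand Pdgfa at 161, 158, 235, 145 and 419.5 CPM, above both gates in every library, by 3.62 ± 0.37 and 3.32 ± 0.28. In the Notch pathway the ligand Dll4 was an endothelial gene, at 80.1, 55.6, 87.0, 50.8 and 20.9 CPM against at most 6.33 CPM in mural cells, and Jag2 was lower in mural cells by -7.46 ± 0.46. The Notch targets Heyl (6.16 ± 0.35) and Hey2 (5.61 ± 0.33) were higher in mural cells than in endothelium. Of 17 Notch genes tested against endothelium 5 were higher and 6 lower, and of 13 tested against fibroblasts 8 were higher and 0 lower. Of 19 vasoactive receptor and cyclic GMP genes tested against fibroblasts 12 were higher and 1 lower, and of 17 tested against endothelium 10 were higher and 7 lower, the latter including S1pr1, Calcrl and Ednrb. The endothelin receptor Ednra was higher than in either gate, by 3.21 ± 0.19 and 8.43 ± 0.43, and stood at 68.0, 91.7, 169, 62.0 and 66.6 CPM. Of the ion transport genes 12 of 16 were higher than in fibroblasts and 12 of 15 than in endothelium, with 0 lower in either, among them Kcnab1 (5.27 ± 0.29 over fibroblasts) and Kcnmb1 (7.43 ± 0.51). Il34, a ligand of the CSF1 receptor of macrophages, was higher by 3.85 ± 0.45 and 7.48 ± 0.52.

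**Figure D4:**
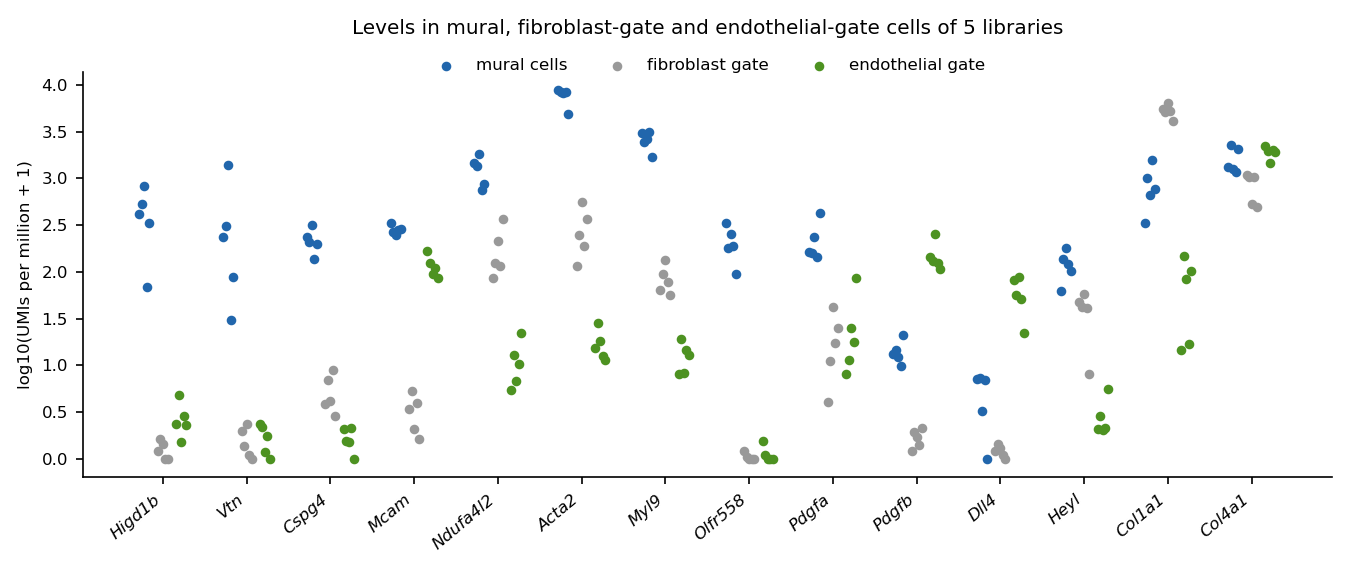
Levels of 14 genes in the mural cells, the fibroblast gate and the endothelial gate of the 5 libraries with 15 or more mural cells, 1 point per library, as log10 of CPM plus 1. Higd1b, Vtn, Cspg4 and Olfr558 are near 0 outside the mural cells; Pdgfb and Dll4 are highest in the endothelial gate and Col1a1 in the fibroblast gate.

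Of 29 interstitial matrix genes 21 were lower in mural cells than in fibroblasts and 0 higher, and 20 were higher than in endothelium and 2 lower. Col1a1 stood at 328, 1001, 662, 1557 and 759 CPM, against 4056 to 6303 CPM in the fibroblast gate (-2.83 ± 0.30) and 13.5 to 145 CPM in the endothelial gate (3.76 ± 0.53). Without the 111 cells with fibroblast or mesothelial genes these were -4.71 and 1.86, and without cells with genes of any other lineage, which leaves 2 libraries, the value against endothelium turned to -1.08. Col4a1, the main chain of the vascular basement membrane, was near fibroblasts (0.89 ± 0.22, under the fold limit) and near endothelium (-0.32 ± 0.15), and neither value was called. Of the MHC class I genes 7 of 10 were lower than in endothelium.

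The study's title concerns efferocytosis and arachidonic acid. The 18 efferocytosis genes summed to 2764, 3387, 3977, 5084 and 3463 CPM in mural cells, among them the bridging protein Mfge8 at 686, 854, 1202, 653 and 726 CPM. Mertk itself was sparse, with 3, 32, 9, 5 and 1 UMIs, or 18.5, 10.1, 20.3, 14.8 and 6.66 CPM. The receptor was thus counted in both MerTK KO libraries, and the deleted exons are not given, so these 3' counts do not check the label. Mertk was higher than in fibroblasts by 1.86 ± 0.41, and its relative Axl, at 173, 102, 131, 216 and 99.9 CPM, was lower by -1.14 ± 0.17. Of 15 efferocytosis genes tested against fibroblasts Mfge8 (2.00 ± 0.21), Cd36 and Mertk were higher and 5 were lower. The prostacyclin receptor Ptgir stood at 12.4, 11.4, 49.7, 8.86 and 13.3 CPM and was 4.44 ± 0.61 higher than in endothelium. The thromboxane receptor Tbxa2r stood at 24.7, 20.9, 18.1, 32.5 and 33.3 CPM and was not called against fibroblasts (0.64 ± 0.27). The prostaglandin E receptor Ptger4 was lower than in fibroblasts (-2.21 ± 0.42), and prostacyclin synthase (Ptgis) was between the gates, at -2.02 ± 0.40 and 2.34 ± 0.37. Cyclooxygenase 1 (Ptgs1) had 1, 21, 4, 22 and 1 UMIs, of which 1, 15, 4, 0 and 1 were left without the 111 cells, and was lower than in endothelium by -2.16 ± 0.45. Of 14 prostanoid and leukotriene genes tested against fibroblasts 0 were higher and 3 lower.

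Injury, age and genotype were compared in 1 edgeR fit of the 5 libraries, with a term for injury and one for each of WT P1, WT 8 week and MerTK KO P1. Each group had 1 library, so the fit has 1 residual degree of freedom. It comes from the 4 P1 libraries, since WT 8 week sham is fitted exactly and is assumed to vary like them. The 3 comparisons share libraries. Whether injury acts differently by age or genotype could not be tested with these libraries. The side shares given above differ between libraries and move with each comparison, and their part in the results was not tested. The counts of WT 8 week sham and WT P1 MI replicate 2 were made with Cell Ranger 6.1.0 and those of the other libraries with 4.0.0. This version thus moves with age and in part with injury and genotype, and its part was not tested either.

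After MI the chemokine Cxcl1 was called higher in P1 mural cells, and no contractile or pericyte gene was called. S100a8, Cxcl2, Hp and Timp1 were also called higher, each with most of its UMIs in MerTK KO P1 MI in 1 of the 2 cells described above. Of 8 tested leukocyte markers 2 were higher, S100a8 and S100a9. The endothelial marker Ecscr and the platelet marker Pf4 were called higher too. All 7 tested mesothelial markers had a fold change below 0 (median -2.70) and 6 of 7 cardiomyocyte markers one above 0 (median 2.31), with 0 called in either list. The part of these markers' cells in the other calls was not tested. Of 6755 genes 21 (0.311%) were higher and 6 (0.0888%) lower. Cxcl1 (chr5:90891241-90893115), which attracts neutrophils, stood at 266 CPM in WT P1 sham, against 1203 CPM in MI replicate 2, and at 121 CPM and 513 CPM in the sham and MI libraries of MerTK KO P1. It was higher after MI in both genotypes, by 2.17 ± 0.32 (edgeR adjusted p = 0.0019). WT P1 MI replicate 1, with 10 mural cells and outside the fit, stood at 163 CPM, below sham. Without the 111 cells the Cxcl1 value was 1.70 (adjusted p = 0.00281), and without the 2 cells of MerTK KO P1 MI 2.07 (adjusted p = 0.000334). Cxcl1 was not called in the fit without WT 8 week sham, nor in the fit of all 7 libraries. In the fibroblast gate Cxcl1 stood at 906 and 1538 CPM in the WT P1 libraries and at 601 and 729.6 CPM in the MerTK KO libraries.

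S100a8 stood at 6.18 and 96.2 CPM in WT P1 sham and MI replicate 2 and at 5.91 and 1645 CPM in MerTK KO P1 sham and MI, of which 199 CPM were left without the cell named above. WT P1 MI replicate 1, outside the fit, had 0 UMIs of S100a8 and of S100a9, which allows up to 24.4 CPM. Its log2 fold change was 7.43 ± 0.68 (edgeR adjusted p = 1.41e-05), and 4.75 without the 2 cells (adjusted p = 0.000262). S100a9 was at 4.84 ± 0.55 and 3.0 without them, and both stayed called. S100a8 in MerTK KO P1 MI was also 447 CPM in the fibroblast gate and 876 CPM in the endothelial gate. Of the 21 genes called higher 18 were still tested without the 2 cells, and 7 of these stayed called. Among those that lost their call were the chemokine Cxcl2 (5.07 ± 0.51, then 2.41), the protease inhibitor Timp1 (3.97 ± 0.55, then 1.89) and the mitotic ligase Ube2c (3.51 ± 0.65, then 2.51), while Lcn2 (5.66 ± 0.73) was no longer tested. Of the 21 genes 16 had 1 cell with at least 50% of their mural UMIs in the library where they stood highest, against 0 of the 6 called lower. Without the 2 cells 7 genes were higher and 13 lower.

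Arih1, a ubiquitin ligase, stood at 519 and 85.1 CPM in WT P1 sham and MI replicate 2 and at 225 and 73.3 CPM in MerTK KO P1 sham and MI, a fall by 2.20 on the log2 scale (SE 0.38, edgeR adjusted p = 0.0129). Cwc25, a splicing factor, was at -2.08 ± 0.38, the m6A reader Ythdc1 at -1.79 ± 0.35 and the nuclear long RNA Neat1 at -1.74 ± 0.36. The chloride channel Ano1 stood at 229, 71.2, 177 and 26.6 CPM in the same order (-1.96 ± 0.41). In WT P1 MI replicate 1, outside the fit, Arih1, Cwc25, Ythdc1 and Ano1 were also below WT P1 sham, at 122, 32.5, 163 and 106 CPM, whereas Neat1 was above it, at 739.8 against 297 CPM. None of 25 contractile genes (median -0.35), 19 pericyte genes (median 0.41) or 19 basement membrane genes (median 0.37) was called, beside -0.01 over all genes. Acta2 was at -0.37 ± 0.23, Col4a1 at 0.84 ± 0.25 and Higd1b at 1.24 ± 0.40. Of 29 cell cycle genes 1, Ube2c, was called, with a list median of 1.04. Without WT 8 week sham 2 genes were higher, Cxcl2 and Hp, and 0 lower, and with all 7 libraries 0 were called (253 at an unadjusted p under 0.05). DESeq2 called 6 higher and 0 lower (119 at an unadjusted p under 0.05).

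**Figure D5:**
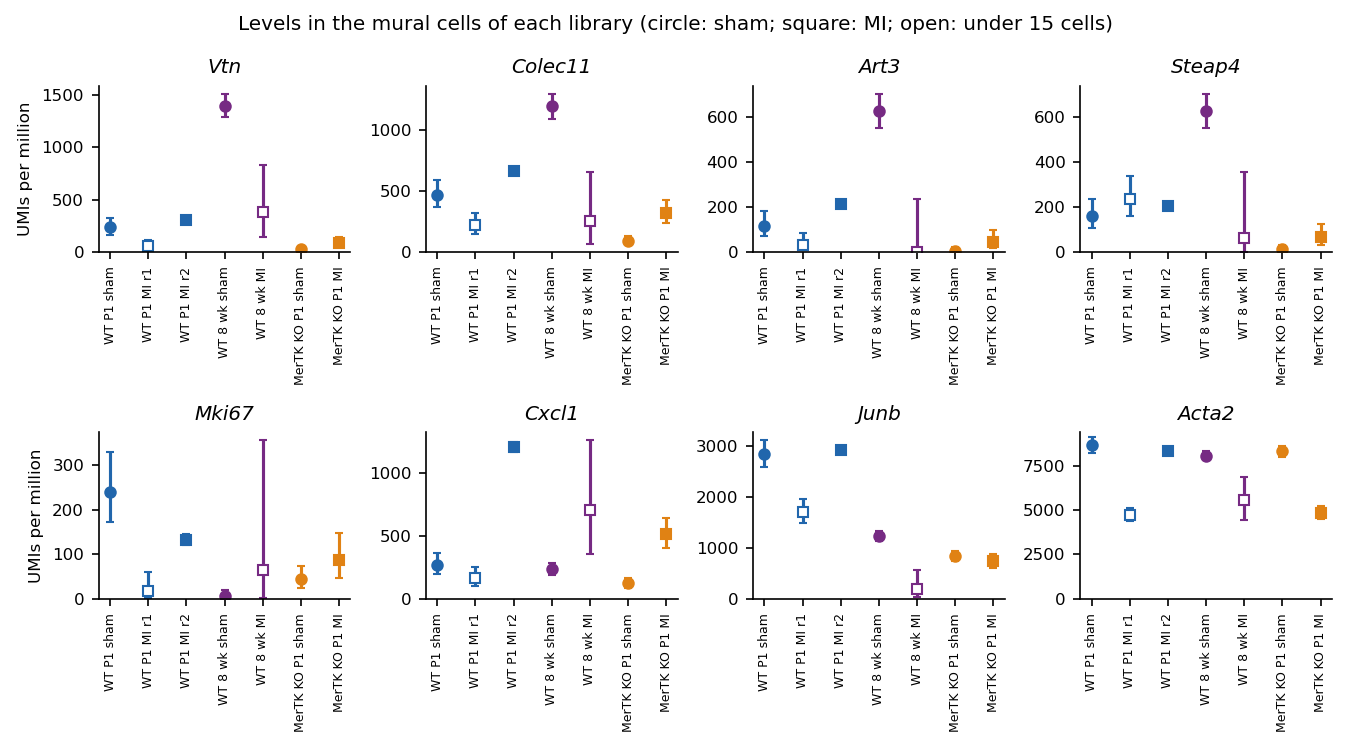
Levels of 8 genes in the mural cells of each library in CPM; circles are sham, squares MI, open symbols libraries under 15 mural cells, and bars exact 95% Poisson intervals of the counts, which cover counting error only. Vtn is highest in WT 8 week sham, at 1396 CPM, and Junb stands at 733 and 839 CPM in the MerTK KO libraries against 2844 and 2931 in the filled WT P1 libraries.

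Mural cells of WT 8 week sham held more Vtn and 4 other pericyte genes than those of WT P1. They held less of 4 cell cycle genes, of 4 immediate early genes and of elastin. WT 8 week sham is the only 8 week library in this fit, and WT 8 week MI had 4 mural cells. Fold changes and p-values of age set it against WT P1. The MerTK KO libraries enter them only through the injury term and the spread. Runs of 4 P1 values give WT P1 sham, WT P1 MI replicate 2, then MerTK KO P1 sham and MI. Of 6755 genes 51 (0.755%) were higher and 76 (1.13%) lower. Vtn stood at 1396 CPM in WT 8 week sham, against 235, 310.0, 29.5 and 86.6 CPM in the 4 P1 libraries, and was higher by 2.82 ± 0.44 (edgeR adjusted p = 0.00251). On the Kcnj8/Abcc9 side alone it stood at 2124 CPM, against 1082 CPM in the sham and 599 CPM in the MI replicate 2 library of WT P1. Of 19 tested pericyte genes 5 were higher and 0 lower, with a median of 1.21 against 0.01 over all genes. The others were the UDP-glucose receptor P2ry14 (4.39 ± 0.76), Art3 (2.73 ± 0.52), the metalloreductase Steap4 (2.34 ± 0.51) and Colec11 (1.67 ± 0.42, adjusted p = 0.0498). Art3 stood at 626 CPM against 5.91 to 214 CPM and Steap4 at 624 CPM against 11.8 to 204 CPM, so that 8 weeks lay above all 4 P1 libraries for both. The Kcnj8/Abcc9 share, 64.7% at 8 weeks and 19.2 to 49.1% at P1, moved with these genes. Markers of other cells also moved with age: 8 of 8 tested leukocyte markers had a fold change above 0 (median 3.63, S100a8 called) and 7 of 7 mesothelial markers one below 0 (median -3.55, none called). Of 4 tested endothelial markers 3 were above 0 and 1 below, with Ecscr called higher. The endothelial markers summed to 1993 CPM at 8 weeks against 1422, 896, 600 and 1092 CPM at P1. Cd36 and Flt1, both called higher at 8 weeks, were among the 8 named genes lowest in mural cells against the endothelial gate. The part of these other cells was not tested. Among the genes of largest fold change, Nts stood at 703 CPM at 8 weeks against 0, 13.6, 0 and 333 CPM at P1. Hp stood at 145 CPM against 0, 81.6, 0 and 2457 CPM and Il1b at 36.2 CPM against 0, 18.7, 5.91 and 259.7 CPM. For both genes 8 weeks lay above the WT P1 libraries of the fit and below MerTK KO P1 MI. The matrix proteins Mgp (2.21 ± 0.45) and Bgn (1.5 ± 0.35), the fatty acid transporter Cd36 (3.43 ± 0.72), the interferon-induced Bst2 (2.68 ± 0.57) and gamma-synuclein (Sncg, 2.14 ± 0.50) were also higher. Mgp stood at 6417 CPM against 958 to 3043 CPM at P1.

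Of 29 tested cell cycle genes 4 were lower in WT 8 week sham and 0 higher, with a median of -3.45. The other 8 week library went the other way. The 30 genes of this list summed to 330 CPM in WT 8 week sham and to 3902 CPM in WT 8 week MI, outside the fit. In WT 8 week MI 2 of the 4 mural cells held at least 2 of 5 cycle genes. Mki67, the marker of dividing cells, stood at 6.78 CPM (3 UMIs) in WT 8 week sham and at 241, 133, 44.3 and 86.6 CPM at P1, a log2 fold change of -4.73 ± 0.81 (edgeR adjusted p = 0.00435). All 39 UMIs of WT P1 sham lay in 1 cell. Top2a had 0 UMIs at 8 weeks, which allows up to 6.78 CPM, against 185, 197, 35.4 and 173 CPM at P1. Stmn1 was at -2.72 ± 0.57. Elastin (Eln) stood at 379.6 CPM against 1496, 841, 2233 and 2218 CPM at P1 (-1.75 ± 0.38), and the proteoglycan aggrecan (Acan) at 2.26 CPM, 1 UMI, against 117, 148, 177 and 33.3 CPM. Single cells held 124 of 242 Eln UMIs in WT P1 sham, 378 of 756 in MerTK KO P1 sham and 297 of 333 in MerTK KO P1 MI. The imprinted fetal genes Dlk1 (-3.89 ± 0.94) and Plagl1 (-3.41 ± 0.80) were 2 of 15 called lower, and that list's median was -1.51. Of 21 immediate early and heat shock genes 4 were lower and 0 higher, Klf4 (-5.73 ± 0.82), Nr4a1 (-2.39 ± 0.48), Klf2 (-2.38 ± 0.53) and Fosb (-1.83 ± 0.41). Klf4, a factor of smooth muscle dedifferentiation, stood at 11.3 CPM against 389.5, 382, 606 and 107 CPM, whereas the fibroblast gate had 408 CPM of Klf4 at 8 weeks. The factor Cebpb (-2.26 ± 0.42), the ligand Efnb2 (-5.28 ± 1.10), Siah2 (-5.74 ± 0.94) and Irf1 (-2.31 ± 0.53) were lower too. The monocyte chemokine Ccl2 was called lower (-3.28 ± 0.60), but not without the 111 cells (-0.70, adjusted p = 0.583), and 1 cell held 175 of its 200 UMIs in WT P1 sham. Contractile genes did not differ by the call, with a median of -0.09 and only Sncg called of 25, and Acta2 was at -0.26 ± 0.30. Xist was 0 in WT 8 week sham and 159.8 to 798 CPM at P1, and Ddx3y was 70.0 CPM and 0 to 129.8 CPM, so the sex of the mice moved with age and its part was not tested. DESeq2 called 9 genes higher and 36 lower, and with all 7 libraries 0 were called (391 at an unadjusted p under 0.05).

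In MerTK KO mural cells of P1 hearts 4 of 19 tested pericyte genes and 5 of 21 immediate early and heat shock genes were called lower than in WT. No gene was called in this comparison without WT 8 week sham or with all 7 libraries (389 and 226 at an unadjusted p under 0.05 by edgeR). Of markers of other cells, 8 of 8 tested leukocyte markers (median 3.01, S100a8 and S100a9 called) and 7 of 7 mesothelial markers (median 2.84, none called) had a fold change above 0, and their part was not tested. The fit gave 18 genes higher (0.266%) and 28 lower (0.415%) of 6755. Of the pericyte genes 0 were higher, with a median of -0.60 against 0.02 over all genes. Vtn stood at 29.5 and 86.6 CPM in MerTK KO P1 sham and MI and at 235 and 310.0 CPM in WT P1 sham and MI replicate 2, and was lower by -2.37 ± 0.40 (edgeR adjusted p = 0.00525). WT P1 MI replicate 1, outside the fit, stood at 56.9 CPM, within the range of the MerTK KO libraries. Art3 (-2.93 ± 0.52), Steap4 (-2.47 ± 0.49) and Colec11 (-1.66 ± 0.36) were the others. Art3 stood at 5.91 and 46.6 CPM against 117 and 214 CPM, and Steap4 at 11.8 and 66.6 CPM against 161 and 204 CPM, so neither overlapped. WT P1 MI replicate 1 stood at 32.5 CPM of Art3 and 236 CPM of Steap4. On the Kcnj8/Abcc9 side alone Vtn was 68.6 and 96.2 CPM in MerTK KO, from 5 and 10 cells, against 1082 and 599 CPM in WT, from 4 and 212 cells. Without the 111 cells Vtn remained called at -2.08, Art3 at -2.78 and Steap4 at -2.50, and Colec11 was not called at -1.13 (adjusted p = 0.134).

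Of 21 immediate early and heat shock genes 5 were lower in MerTK KO and 0 higher. Junb, a subunit of the AP-1 factor, stood at 839 and 733 CPM in MerTK KO P1 sham and MI and at 2844 and 2931 CPM in WT, with WT P1 MI replicate 1 at 1707 CPM. Its log2 fold change was -1.88 ± 0.26 (edgeR adjusted p = 0.000865), and the groups did not overlap. Junb was also lower in the other gates of the MerTK KO libraries, at 1057 and 479 CPM against 2384 and 2676 CPM in the fibroblast gate and at 559 and 586 CPM against 1165 and 1792 CPM in the endothelial gate. The RNA-decay factor Zfp36 stood at 136 and 119.9 CPM against 495 and 646 CPM (-2.13 ± 0.34), and the chaperone Hspa1a at 94.5 and 199.8 CPM against 402 and 727 CPM (-1.97 ± 0.33). Btg2 was at -1.66 ± 0.32, and the factors Cebpb and Cebpd were at -2.98 ± 0.34 and -1.62 ± 0.32. Cebpb stood at 174 and 159.8 CPM against 1843 and 895 CPM, and at 439 CPM in WT P1 MI replicate 1. Ccl2 was lower by -4.22 ± 0.51, with 175 of the 200 UMIs of WT P1 sham in 1 cell. The fatty acid binding protein Fabp7 (-3.44 ± 0.52), Rerg (-3.28 ± 0.73), Siah2 (-3.14 ± 0.63) and the chromatin protein Hmgb2 (-1.71 ± 0.35) were lower too.

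Genes called higher in MerTK KO lay mostly in few cells. Of the 18, 16 had 1 cell with at least 50% of their mural UMIs in the library where they stood highest, against 2 of the 28 lower. Timp1 was at 3.88 ± 0.52, S100a9 at 3.17 ± 0.49 and Cxcl2 at 2.19 ± 0.44. Without the 2 cells of MerTK KO P1 MI these were 1.71, 1.18 and -1.14, and none of the 3 was called. Dcn, at 3580.4 and 1865 CPM against 61.8 and 832 CPM (3.05 ± 0.68, adjusted p = 0.0483), moved with the mesothelial and fibroblast genes described above. Contractile genes were not called (0 of 25, median -0.18), and Acta2 was at -0.42 ± 0.23, or 0.03 without the 111 cells. Of 12 tested efferocytosis genes and 9 prostanoid genes 0 were called. The Kcnj8/Abcc9 shares were 19.2 and 43.5% in MerTK KO sham and MI and 23.5 and 49.1% in WT. With cells thinned and selected again as above, they were 12.5 and 23.1% in MerTK KO and 36.4 and 61.2% in WT. For sham the thinned intervals overlapped, at 1.55 to 38.3% in MerTK KO and 10.9 to 69.2% in WT. For MI they did not, at 5.04 to 53.8% (3 of 13 cells) and 55.5 to 66.6% (189 of 309 cells). Before thinning the MI intervals overlapped, at 23.2 to 65.5% in MerTK KO and 44.3 to 53.9% in WT. Xist stood at 798 and 159.8 CPM against 210.2 and 465 CPM. Ddx3y stood at 0 and 33.3 CPM against 129.8 and 13.9 CPM. The side shares and these sex-linked genes thus differed between the libraries, and their part was not tested. DESeq2 called 5 higher and 12 lower.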

How the data were processed

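The authors deposited raw UMI counts per gene and barcode, made with Cell Ranger 6.1.0 in the case of WT 8 week sham and of WT P1 MI replicate 2 and with 4.0.0 otherwise, per the file headers, on GRCm38 (mm10) per the submitters' processing notes. Gene positions are of GENCODE on GRCm38 and promoters of RefSeq. Cells were filtered and gated as the report states, and counts were summed per library and gate. Sums were tested with edgeR 4.0.16 (R 4.3.3) by the quasi-likelihood test with TMM factors and filterByExpr, leaving out the 9 gating genes, and p-values were adjusted over all genes tested (Benjamini-Hochberg). The library was a block in the comparisons of sides and gates. DESeq2 1.42.0 was an alternative, and Scrublet in scanpy 1.11.5 scored doublets, with the top 0.8% per 1000 barcodes marked, 33 of the 614 members among them, which the values reported keep. Scripts were tested on simulated counts.

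Members and gene lists were chosen with earlier results of these data known. Genes named are the 6 rule genes and 19 others chosen by role, the 8 called genes of largest and of smallest log2 fold change with at least 30 UMIs, leaving out unnamed, ribosomal, mitochondrial, haemoglobin and sex-linked genes, and 2 to 4 called genes of smallest p per list, not all of which are printed. Names outside this rule were chosen after their values were seen. A count of 0 was read as allowing up to 3 UMIs, and intervals cover counting error only. The summed UMIs in the report set the precision.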

Additional observations from a re-analysis of the deposited data

Results flagged for a closer look

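The share of mural cells among kept cells moved in opposite directions after MI. In WT P1 hearts it was 0.224 percentage points higher in MI replicate 1 and 3.19 higher in replicate 2 than in sham. In WT 8 week hearts MI minus sham was -0.538 and in MerTK KO P1 hearts -0.648 percentage points. By this measure both MI libraries of WT P1 were above sham, and those of WT 8 week and of MerTK KO P1 below. The rise in replicate 1 lay within counting error, with intervals of 0.622 to 2.37% there and 0.624 to 1.71% in sham. CD45+ and CD45-negative cells were mixed before capture, so these shares do not give the makeup of the heart. The difference between these groups was not tested, since each sham group and 2 of the 3 MI groups had 1 library. Taken over cells without a Ptprc UMI, MI minus sham was -0.162 percentage points for WT P1 MI replicate 1, and of the WT P1 libraries replicate 2 alone was then higher than sham. Replicate 1 was also below WT P1 sham with 4 of 6 rule genes (0.776 against 0.881%), without cells with fibroblast or mesothelial genes (0.776 against 0.943%) and without cells with genes of other lineages (0.129 against 0.189%). Under that last setting MerTK KO P1 MI was above its sham (0.0908 against 0.0766%).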

How the results depend on the processing

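Of the values of single genes under the alternatives, 19 changed sign, 282 lost and 25 gained a call, and 1952 kept direction and side of the threshold, while 250 others kept their direction in fits that allow no test. Mural cells summed to 150169 UMIs in the shallowest compared library and 3160915 in the deepest, which limits all counts below. Leaving out cells with fibroblast or mesothelial genes, leaving out the 2 cells of MerTK KO P1 MI, and adding libraries under 15 mural cells were alternatives chosen after seeing the data. No paired analysis of injury, age or genotype was possible because only WT P1 MI has replicate numbers.

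Genes higher on the Kcnj8/Abcc9 side were 371 with no filter, 30 with 4 of 6 rule genes and 42 after Scrublet removal, and from 14 to 99 with 1 library left out, and genes lower 411 with no filter and from 47 (without WT P1 MI replicate 2) to 162 with 1 library left out.
For MI against sham the counts higher and lower were 6 and 0 with DESeq2, 11 and 0 with library totals, 36 and 25 with no filter, 52 and 43 without the cells with fibroblast or mesothelial genes, 14 and 3 with libraries of 10 or more mural cells, 0 and 0 with all 7 libraries, 7 and 13 without the 2 cells and 2 and 0 without WT 8 week sham; Scrublet removal gave 36 lower.
For 8 week against P1 they were 9 and 36 with DESeq2, 26 and 46 with library totals, 77 and 178 after Scrublet removal, 114 and 190 without cells with fibroblast or mesothelial genes, 31 and 45 with 10 or more mural cells and 0 and 0 with all 7 libraries. No filter gave 144 lower, and leaving out the 2 cells gave 154 lower.
For MerTK KO against WT they were 5 and 12 with DESeq2, 36 and 74 with no filter, 72 and 85 after Scrublet removal, and 0 and 0 both without WT 8 week sham and with all 7 libraries. The genes lower were also 15 with library totals, 48 without cells with fibroblast or mesothelial genes, 8 with 10 or more mural cells and 57 without the 2 cells.
Leaving out mural cells with genes of other lineages gave 312 higher and 491 lower against the fibroblast gate and 455 and 643 against the endothelial gate. Against the fibroblast gate, genes lower were 1151 without cells with fibroblast or mesothelial genes, 467 without WT P1 MI replicate 2 and 501 with no library term.

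Mural shares without cells with genes of other lineages were 0.189, 0.129, 0.365, 0.131, 0, 0.0766 and 0.0908% in the order of the report. With 2 of 6 rule genes the shares were 5.61% in WT P1 MI replicate 2, 0.869% in WT 8 week sham and 0.560% in MerTK KO P1 MI. With 4 of 6 they were 3.30% in WT P1 MI replicate 2, and 0.651 and 0.212% in the sham and MI libraries of MerTK KO P1. Without cells with fibroblast or mesothelial genes WT P1 MI replicate 2 was at 3.43% and MerTK KO P1 sham at 0.651%, and thinning gave 3.36% in WT P1 MI replicate 2 and 0.209% in MerTK KO P1 MI. The Kcnj8/Abcc9 share was 61.2% thinned and 55.7% with 4 of 6 genes in WT P1 MI replicate 2 and 23.1% thinned in MerTK KO P1 MI.

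The log2 fold changes that changed sign were these. Between the sides Cspg4 was 0.29 with 4 of 6 genes and 0.17 without cells with fibroblast or mesothelial genes, and Ndufa4l2 was 0.01, 0.24, 0.09, 0.58, 0.22, 0.40 and 0.10 under library totals, 4 of 6 genes, Scrublet removal, leaving out those cells, no library term, and leaving out the sham or the MI library of MerTK KO P1. Higd1b after MI was -0.04 with all 7 libraries. In MerTK KO, Acta2 was 0.03 without cells with fibroblast or mesothelial genes and Cxcl2 -1.14 without the 2 cells. Against the fibroblast gate Mki67, which was not called, was -0.05 with DESeq2, -2.93 without cells with genes of other lineages, -0.42 without WT P1 sham and -0.09 without WT P1 MI replicate 2, Ptgs1 was 0.02 without MerTK KO P1 MI and Tbxa2r -0.30 without cells with genes of other lineages. Under that last setting Col1a1 against the endothelial gate was -1.08. The cause was not tested.

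For the 3 comparisons of conditions 4 of 6 genes, removal of cells with other lineages, a minimum of 30 mural cells and group means could not be fitted with the libraries left. Removal of cells with other lineages could not be fitted between the sides either, nor 8 week against P1 without its only 8 week library. Leaving out any of the 4 P1 libraries left 0 residual degrees of freedom.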
